A study of Mus musculus with 10 samples.

Results

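The genes described here encode the subunits of the proteasome and of the factors that assemble, cap or regulate it. They were chosen by gene symbol alone, as every feature named Psma to Psmg followed by a digit, leaving out Psmc3ip and the pseudogenes, which gave 49 of the 32285 genes in the count matrices. Of these, 8 encode the outer alpha rings of the 20S core, with the germ cell form Psma8 among them. A further 11 encode the inner beta rings: 4 structural, 3 constitutive catalytic and 3 immune catalytic subunits and the thymic Psmb11. The 19S cap holds 6 ATPase and 11 non-ATPase subunits with 3 assembly chaperones, and the rest are 3 PA28 alpha-beta activator genes, 2 other activators, the regulator PI31 and 4 chaperones of the 20S core. They were measured by single-cell RNA sequencing of the cochlear and the vestibular sensory epithelium of wild-type CBA/J mice aged 22 months, with cells of several mice pooled in each library. No value below is a change with age, since the young group of the study was not analysed here. Replicates 1, 3, 4 and 5 were used, so n = 4 libraries per organ.

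The proteasome is the barrel-shaped protease that degrades ubiquitin-tagged proteins in every cell: its cap binds and unfolds the substrate, and the catalytic beta subunits cut it inside the barrel. Cells of the immune system, and other cells exposed to interferon, replace the constitutive catalytic subunits Psmb5, Psmb6 and Psmb7 by Psmb8, Psmb9 and Psmb10, which gives the immunoproteasome. That form and its activator PA28 (Psme1 and Psme2) are known for making the peptides that MHC class I molecules present. Hair cells (HCs) are the mechanosensory cells of the inner ear and are not replaced in the adult cochlea.

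Replicate 2 of each organ held 1313 of 1313 and 1633 of 1641 of its cell barcodes in common with replicate 1, with counts that differed by less than the sampling noise, and was counted with it as 1 library. The libraries used held 2738036 to 26974948 unique molecular identifiers (UMIs, each standing for a captured transcript), and 571 to 5438 cells passed the quality filters. The members took 0.287% and 0.322% of UMIs in replicate 1 of the cochlea and the vestibule and 0.351% to 0.452% in the other libraries. The headers of the deposited matrices give another Cell Ranger version for replicate 1 than for the others. Its part in this gap was not tested. Without replicate 1, of the results for single genes given below, 8 calls were lost and 3 gained.

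Cell classes were rebuilt from marker genes after clustering each organ without the proteasome genes, so a class is named for its markers and is "macrophage-like" and so on in the strict sense. HC-like clusters held 152 cochlear and 1771 vestibular cells. The macrophage class held 388 and 367 cells, the stromal class (fibrocytes or fibroblasts) 1301 and 3066, the supporting cell class 1135 and 555, and the T or NK cell class 253 and 176. A further 70 cochlear and 232 vestibular cells with HC markers were set aside, since all 10 leading genes of their cluster were leading genes of other clusters. The macrophage marker genes summed to 0 to 6.58 UMIs per 1000000 UMIs of the class (CPM) in the cochlear HCs and 2.49 to 12.4 CPM in the vestibular HCs (vHCs), against at least 5424 CPM in macrophages. Stromal markers reached 759 and 750 CPM in cochlear and vestibular HCs, against at least 5455 and 27150 CPM in stromal cells, and supporting cell markers 190 and 290 CPM against at least 1368 and 4765 CPM. Erythroid markers summed to 0 to 7846 CPM in cochlear HCs and 95.9 to 2227 CPM in vestibular HCs, against at least 99217 and 601683 CPM in erythroid cells. Their part in the values below was not tested.

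Of these 5 classes, T or NK cells and macrophages had the highest mean summed level of all members and stromal cells the lowest, in both organs. In the vestibule it was 3789, 4411, 4614 and 4148 CPM in HCs of replicates 1, 3, 4 and 5, with a mean of 4241 ± 356 CPM (SD, n = 4). It was 5409 ± 856 CPM in macrophages, 3540 ± 516 CPM in supporting cells and 2699 ± 69.8 CPM in stromal cells. Every vestibular HC library lay above every stromal library, while the ranges of HCs and of both macrophages and supporting cells overlapped. In the cochlea HCs had 3131, 5066, 5190 and 4762 CPM, with a mean of 4537 CPM. Macrophages had 4648 ± 228 CPM, supporting cells 3665 ± 774 CPM and stromal cells 3179 ± 771 CPM (SD, n = 4). Replicate 1 was the lowest library of HCs, of each of these classes and of T or NK cells. Without replicate 1 the mean was 5006 CPM in cochlear HCs and 4756 CPM in cochlear macrophages, so that their order was reversed. Median UMIs per cell were 4051 and 3399 in vestibular and cochlear HCs and 1735 and 1703 in stromal cells, and the part of depth in these levels was not tested.

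The make-up of that sum differed between classes. Psmb8, Psmb9, Psmb10 and the PA28 genes together gave 1.70% ± 0.199 of the members' UMIs in vHCs and 0.604% ± 0.141 in cochlear HCs (cHCs). They gave 4.54% and 4.91% in supporting cells of the vestibule and the cochlea, 8.39% and 11.4% in stromal cells, 19.6% and 24.9% in macrophages, and 28.7% and 28.8% in T or NK cells. Without these 6 genes, the cochlear HCs, at 4511 ± 954 CPM, had a higher mean than the cochlear macrophages, at 3486 ± 83.4 CPM, though replicate 1 of the HCs, at 3105 CPM, lay below all macrophage libraries. In the vestibule the same sum was 4168 ± 345 CPM in HCs and 4323 ± 527 CPM in macrophages, and the ranges overlapped.

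**Figure D1:**
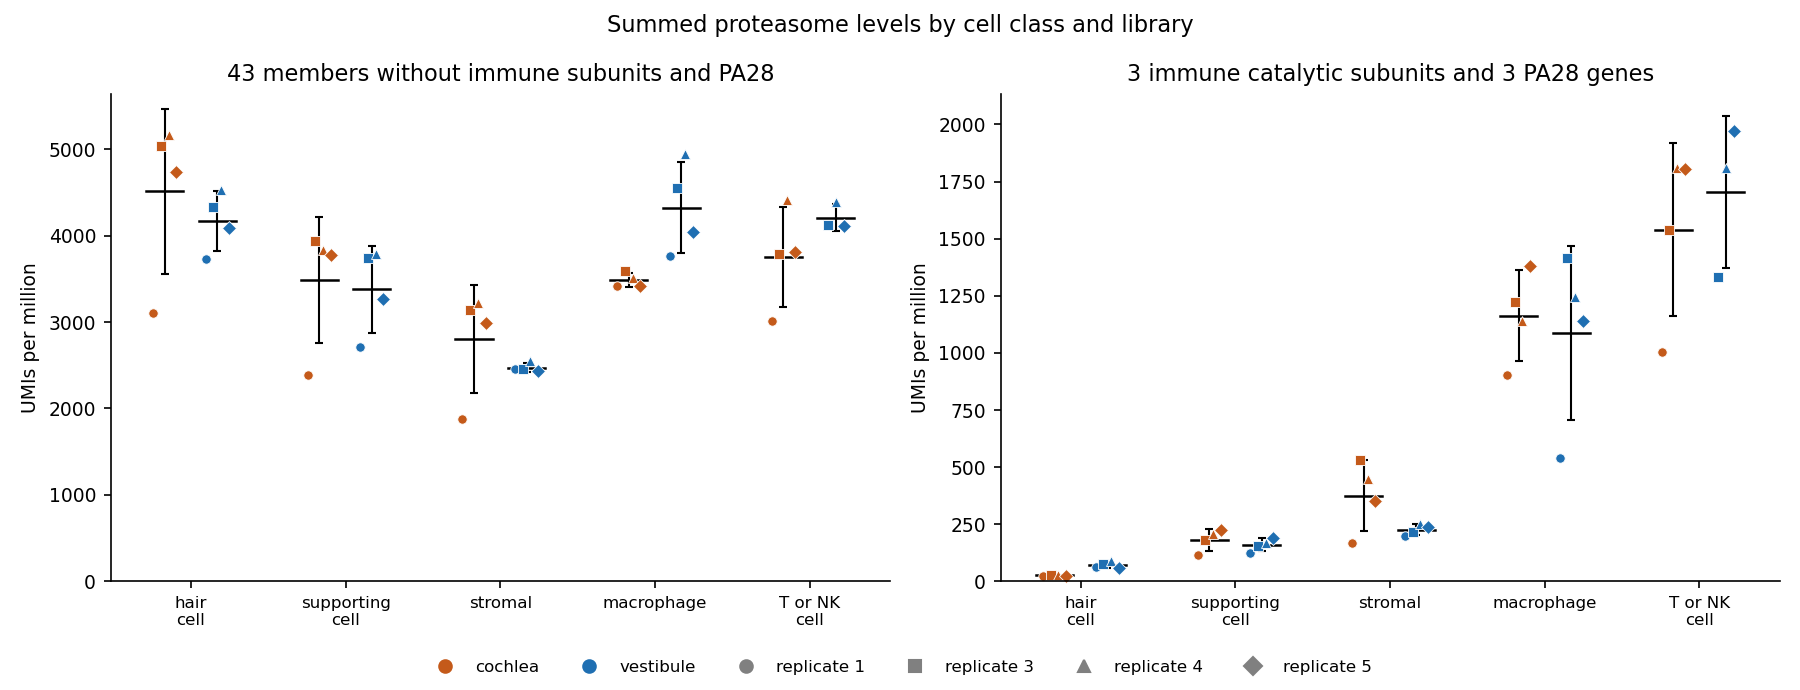
Summed levels in CPM (y axis) by cell class (x axis) for the 43 members without the immune subunits and PA28 (left) and for the 3 immune catalytic and 3 PA28 genes (right). Symbols are libraries (shape for replicate, colour for organ) and bars are mean ± SD over 4 libraries, or 3 for vestibular T or NK cells. The 6 immune genes stay under 100 in every HC library and reach 542 to 1416 in vestibular macrophages.

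Psmb8, the immune counterpart of the chymotrypsin-like subunit Psmb5, had the highest mean level of the immune subunits in macrophages, stromal cells and T or NK cells, although Psmb9 was above it in cochlear macrophages of replicate 5 (305 against 240.9 CPM). The share of Psmb8 in the UMIs of the Psmb8 and Psmb5 pair was 0.962%, 1.65%, 3.15% and 1.06% in vHCs of replicates 1, 3, 4 and 5. In macrophages of the same libraries it was 50%, 69.6%, 76.3% and 71.6%, and in stromal cells 29.6%, 35.6%, 41.0% and 31.3%. The HC, stromal and macrophage libraries did not overlap. In the cochlea the shares were 9.09%, 1.01%, 0% and 0% in HCs, and the first of these was 1 UMI of Psmb8 beside 10 of Psmb5. Cochlear stromal cells reached 66.7%, 64.0%, 58.3% and 53.5%, macrophages 87.1%, 76.8%, 84.6% and 60.0%, and all lay above the cochlear HC libraries. Supporting cells were low in both organs, with 4.91% ± 3.70 in the vestibule and 4.53% ± 2.06 in the cochlea (SD, n = 4), and overlapped the HCs. Cochlear neurons, with 12 UMIs of Psmb8 beside 1176 of Psmb5, had a share of 1.21% in 1 library and 0% in the other 3.

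The pair of Psmb9, which replaces the caspase-like subunit Psmb6, had lower mean immune shares than the Psmb8 pair in HCs, macrophages, stromal cells and T or NK cells. Its mean share was higher in supporting cells of both organs and in cochlear neurons (2.47% against 0.302%). The Psmb9 shares were 0.746%, 0.813%, 0.815% and 0.413% in vHCs and 25%, 46.5%, 32.1% and 52.7% in vestibular macrophages. T or NK cells had 60.5% ± 1.57 (n = 3) and stromal cells 12.7% ± 4.17 (n = 4), while supporting cells, at 5.88%, 11.1%, 7.41% and 16.7%, lay above all vHC libraries. In cHCs 1 UMI of Psmb9 was counted beside 135 of Psmb6, and the cochlear means were 50.4% in macrophages, 23.9% in stromal cells and 7.30% in supporting cells.

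Psmb10, the counterpart of the trypsin-like subunit Psmb7, was the immune subunit that HCs held most of. Its share of the pair was 12.3%, 14.6%, 22.7% and 11.5% in vHCs, close to the 16.7%, 5.26%, 14.7% and 21.1% of vestibular supporting cells, whose range it overlapped. Macrophages had 42.9%, 56.8%, 55.3% and 63.1% in the vestibule and 33.3%, 65.5%, 66.7% and 64.3% in the cochlea. In cHCs the shares were 0%, 5.41%, 15.4% and 10.0%, from 5 UMIs of Psmb10 in all. The 3 pairs thus did not shift alike: vHCs held under 1% of Psmb9, at most 3.15% of Psmb8 and at least 11.5% of Psmb10.

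**Figure D2:**
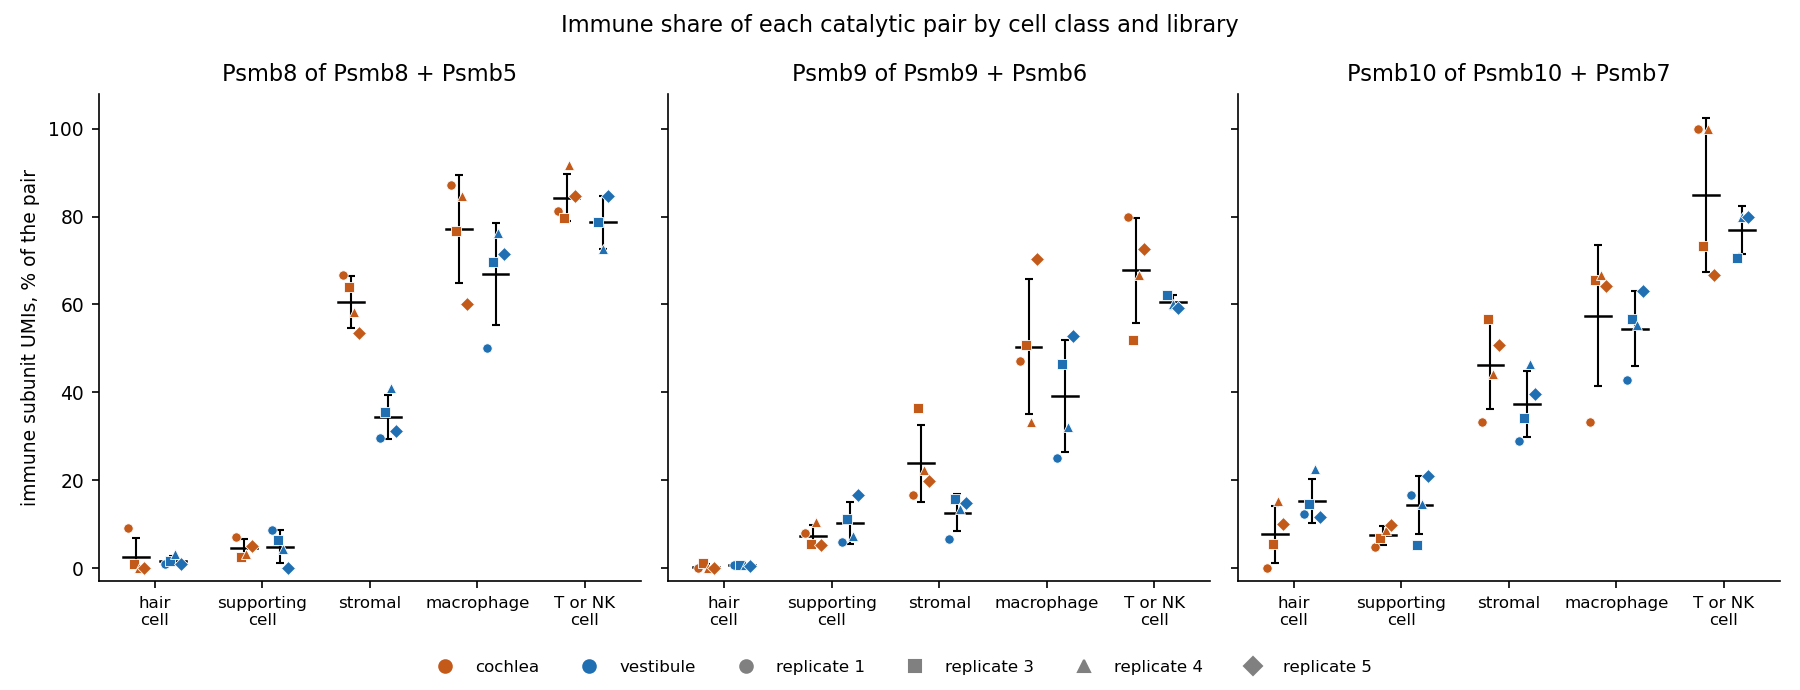
Share of the immune subunit in the UMIs of each catalytic pair (y axis, percent) by cell class (x axis), with a panel for each of Psmb8, Psmb9 and Psmb10. Symbols are libraries and bars are mean ± SD over 4 libraries (3 for vestibular T or NK cells). HC libraries lie at or below 9.09% for Psmb8 and 1.15% for Psmb9, and between 0% and 22.7% for Psmb10.

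Free RNA from broken cells can put UMIs of immune genes into droplets of other cells, so the complement genes C1qa, C1qb and C1qc, which macrophages make, were set beside these levels. Their summed level in HCs was 0% of that in macrophages in the cochlea and 0.143% in the vestibule. Psmb8 in HCs stood at 0.731% and 0.693% of its macrophage level, Psmb9 at 0.812% and 0.801%, and Psmb10 at 5.03% and 12.5%. In stromal cells the C1q genes stood at 1.19% and 0.293% of their macrophage level in the cochlea and the vestibule, and Psmb8 at 34.6% and 9.54%. Stromal cells, T or NK cells and B cells can also release these transcripts, which the C1q genes do not measure. Summed stromal markers reached 759 CPM in cochlear and 750 CPM in vestibular HCs. The part of these sources was not tested.

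Promoter sequences are shown for Psmb10 and Psmb5 because, as given below, these catalytic genes differed in opposite directions between stromal cells and HCs in both organs, and for Psmb6 as another constitutive subunit whose window could be printed. They are upstream windows from the RefSeq table of GRCm38.p6, trimmed to bases outside annotated exons. Capitals mark a match to TGACNNNGC, the core of the antioxidant response element, a site type bound by factors such as Nrf2.
Psmb10, chr8:105938445-105938642, minus strand: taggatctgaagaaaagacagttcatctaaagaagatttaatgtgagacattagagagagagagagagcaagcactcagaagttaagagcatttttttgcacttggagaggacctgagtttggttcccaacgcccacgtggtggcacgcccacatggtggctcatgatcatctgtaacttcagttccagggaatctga
Psmb5, chr14:54618023-54618245, minus strand: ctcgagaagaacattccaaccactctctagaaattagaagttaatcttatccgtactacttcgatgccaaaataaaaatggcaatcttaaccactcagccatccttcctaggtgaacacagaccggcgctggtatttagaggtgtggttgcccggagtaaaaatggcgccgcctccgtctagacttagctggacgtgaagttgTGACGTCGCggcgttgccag
Psmb6, chr11:70525107-70525356, plus strand: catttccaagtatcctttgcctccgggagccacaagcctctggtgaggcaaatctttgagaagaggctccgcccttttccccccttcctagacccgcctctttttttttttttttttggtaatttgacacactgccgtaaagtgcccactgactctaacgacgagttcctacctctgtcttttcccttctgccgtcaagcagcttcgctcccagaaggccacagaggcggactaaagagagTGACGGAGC

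Counted in the untrimmed windows from the RefSeq transcript start, which differs from the GENCODE gene start, the match in Psmb5 lay 47 to 39 bases before it and that in Psmb6 9 to 1 bases. Windows of 250 bases were given for 41 of the 49 members, and Psmb7 was not among them. On either strand, TGACNNNGC occurred in 10.2% of all 32851 windows and in 5 members (Psmb5, Psmb6, Psmc6, Psmd12 and Psmd9). A core of the interferon-stimulated response element (ISRE), GAAA, any 2 bases and GAAA again, occurred in 2.98% of all windows and in Psmb3, Psmd4 and Psmd9. The STAT site TTCNNNGAA, which reads the same on both strands, was in 7.02% of all windows and in Psmb8 and Psmg1. The windows of Psmb8 and Psmb9 lay wholly within annotated exons (250 of 250 bases), so that the match in Psmb8 was in exon sequence. The site of nuclear respiratory factor 1 (NRF1) was in 3.74% of all windows and in 6 members (Psma2, Psma3, Psma4, Psmc4, Psmc5 and Psmd14). That factor is distinct from the product of Nfe2l1, which is also called NRF1. A match is a description of letters in this window.

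In GRCm38, Psmb8 spans chr17:34197721-34201454 on the plus strand and Psmb9 chr17:34181987-34187764 on the minus strand, both in the MHC region. Psmb10 spans chr8:105935735-105938444, Psmb5 chr14:54614119-54618022 and Psmb7 chr2:38588036-38644087 on the minus strand, and Psmb6 spans chr11:70525367-70527858 on the plus strand. On its own strand, each of Psmb5, Psmd1, Psme2b and Psmg3 overlaps an exon of another annotated gene, though not in the last 500 bases of the gene, where 3′ libraries place their reads.

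Classes were next compared with HCs gene by gene over libraries, with edgeR's quasi-likelihood test, the library as a block and Benjamini-Hochberg adjustment over all genes tested. Values below are log2 differences ± SE, with positive values for higher levels in the named class. The SE was derived from the test, as the size of the difference over the square root of its F statistic. For genes with few UMIs in HCs it can be narrower than the counting error. The 4 comparisons of an organ share its HC sums, and an estimate of the spread from a joint fit of all its named classes. They are therefore not independent of each other. Of the members, 46 were tested in the vestibule and 43 in the cochlea. Psma8, Psmb11 and Psme2b had too few counts in both organs and Psme3, Psmf1 and Psmg1 in the cochlea.

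Vestibular macrophages were higher than HCs in 12 members and lower in 4, against 30.8% and 33.8% of the 9985 genes tested, and in either direction 34.8% of the members were called against 64.6% of all genes. The median over the 46 members was 0.28, against -0.09 over all genes. DESeq2 moved the median of all genes to -0.36 and RLE scaling to -0.38, and the members' split to 12 and 11 and to 10 and 11. By role, all 3 immune subunits, 3 of 7 alpha and 3 of 4 structural beta genes were higher, with both tested PA28 genes, and none of these groups had a lower member. None of the 3 constitutive catalytic genes passed, with 0.23 ± 0.20 for Psmb5, 0.28 ± 0.19 for Psmb6 and 0.26 ± 0.22 for Psmb7.

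Psmb8 was measured at 1.25, 2.49, 4.98 and 1.45 CPM in vHCs and at 135, 423, 432 and 316 CPM in macrophages of replicates 1, 3, 4 and 5. Its log2 difference was 7.14 ± 0.30 (adjusted p = 1.8e-43). Psmb9 rose from 1.25, 1.66, 1.87 and 0.727 CPM to 33.9, 223, 131 and 158 CPM, a log2 difference of 6.78 ± 0.33 (adjusted p = 1.5e-38). Neither gene had a macrophage library within the range of the HCs. Psmb10 had 11.2, 12.7, 21.2 and 8.72 CPM in HCs and 102, 128, 76.3 and 95.3 CPM in macrophages, with 3.17 ± 0.27 (adjusted p = 1.1e-20), again without overlap. Macrophages of replicate 1 were 10 cells, and this library was the lowest for Psmb8 and Psmb9.

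Other members changed by less. Psmd8, the Rpn12 lid subunit, was higher by 1.19 ± 0.20 in vestibular macrophages, Psmb3 by 0.84 ± 0.20, Psma4 by 0.80 ± 0.21 and Psma1 by 0.71 ± 0.21, the last 3 being ring subunits with no catalytic site. The call of Psmb3 was lost without replicate 4 and under a marker rule per cell. On the lower side were Psmf1, at -2.01 ± 0.28, the cap ATPases Psmc1, at -0.87 ± 0.22, and Psmc5, at -0.56 ± 0.23, and the lid subunit Psmd6, at -0.73 ± 0.21. The call of Psmd6 was lost without replicate 4 and that of Psmc5 in 7 of 15 alternative settings.

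In the cochlea, macrophages were higher than HCs in 6 of 43 members and lower in 6, against 25.4% and 25.1% of the 7378 genes tested (50.5% in either direction). The split was 5 and 9 with DESeq2 and 5 and 11 with RLE scaling, which moved the median of all genes from -0.01 to -0.20 and -0.22. Psmb8, Psmb9 and Psmb10 were higher by 7.06 ± 0.55, 6.88 ± 0.67 and 4.34 ± 0.49, and all cochlear macrophage libraries (240.9 to 369 CPM for Psmb8) lay above all cHC libraries (0 to 12.7 CPM). These fits rest on few HC counts. With exact intervals, which cover counting error only, 2 UMIs of Psmb8 gave a ratio of pooled levels of 137 (95% exact counting interval 37.6 to 1133), and 1 UMI of Psmb9 a ratio of 123 (21.9 to 4893). Of the constitutive subunits, Psmb5 was at -0.60 ± 0.30, Psmb6 at -0.14 ± 0.30 and Psmb7 at 0.04 ± 0.33, and none passed. Psma5, an alpha ring gene, was the only other member called higher, at 0.81 ± 0.33, and that call was lost in 8 of 15 settings. The lower members were Psmd6 at -2.41 ± 0.27, Psmc5 at -1.27 ± 0.30, the PA200 activator gene Psme4 at -1.21 ± 0.37, Psmc4 at -1.02 ± 0.42, Psmb4 at -0.81 ± 0.29 and Psmd2 at -0.73 ± 0.31. The calls of Psmc4, Psmb4 and Psmd2 were lost in 14, 9 and 12 settings.

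T or NK cells were added to the comparisons once the classes were known. In the vestibule 9 members were higher and 9 lower than in HCs, against 20% and 29% of all genes, with a median of all genes of -0.27. The split was 8 and 12 with DESeq2, whose median of all genes was -0.39, and 7 and 13 with RLE scaling, at -0.48. Psmb8 had 523, 755 and 671 CPM in the 3 libraries with enough cells, and was higher than in HCs by 7.75 ± 0.32. Psmb9 was higher by 6.85 ± 0.38 and Psmb10 by 3.31 ± 0.34. Among the constitutive subunits, Psmb7 was lower by -0.87 ± 0.36, a call lost in 8 of 15 settings, while Psmb5 (0.13 ± 0.26) and Psmb6 (-0.56 ± 0.27) did not pass. In the cochlea 5 members were higher and 7 lower, against 18.4% and 23.9% of all genes (42.3% in either direction), and the split was 5 and 8 with DESeq2 and 5 and 11 with RLE scaling, with medians of all genes of -0.30 and -0.40 in place of -0.14. The 5 higher members were Psmb8, at 7.71 ± 0.53, Psmb9, at 6.76 ± 0.71, Psmb10, at 4.37 ± 0.52, Psme1 and Psme2, while Psmb5 (-0.33 ± 0.32), Psmb6 (-0.48 ± 0.33) and Psmb7 (-0.75 ± 0.40) did not pass.

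Further members of the core and cap differed in T or NK cells. Higher in the vestibule were the beta ring genes Psmb1 (0.89 ± 0.22) and Psmb3 (0.70 ± 0.24) and the cap subunits Psmd13 (0.79 ± 0.32) and Psmd8 (0.63 ± 0.27). Lower were Psmf1 (-2.82 ± 0.46), the core chaperone Psmg1 (-1.78 ± 0.54), Psme4 (-1.47 ± 0.45), Psmc1 (-1.04 ± 0.30), Psmd6 (-1.03 ± 0.29), Psmd1 (-0.82 ± 0.31) and Psmd2 (-0.73 ± 0.31). Without replicate 3 or replicate 4 the vestibular calls of Psmb3, Psmc1 and Psmd6 were lost, and those of Psmd13, Psmd1 and Psmd2 were lost in 6, 6 and 9 settings. In the cochlea Psmd6 (-2.47 ± 0.31), Psme4 (-1.60 ± 0.45), Psmd1 (-1.46 ± 0.39), Psmd5 (-1.34 ± 0.49), Psmb4 (-1.26 ± 0.33), Psmd2 (-1.22 ± 0.37) and Psmc5 (-1.08 ± 0.33) were lower. Cochlear T or NK sums of replicates 4 and 5 rest on 6 and 11 cells.

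In stromal cells all 3 immune subunits were higher than in HCs of both organs, and of the constitutive ones Psmb5 was lower in both. In the vestibule 5 members were higher and 19 lower, against 31% and 30.6% of all genes, and the median over members was -0.32 against 0.02 over all genes. The 5 were exactly the 3 immune subunits and both tested PA28 genes. Psmb8 had 27.9, 35.5, 48.8 and 31.2 CPM, all above the vHC libraries, and was higher by 4.07 ± 0.34. Psmb9 was higher by 3.84 ± 0.39 and Psmb10 by 1.2 ± 0.26 (adjusted p = 3.8e-05). Psmb5 had 66.2, 64.3, 70.3 and 68.5 CPM in stromal cells and 128, 149, 153 and 135 CPM in HCs, a log2 difference of -0.68 ± 0.19 (adjusted p = 0.0008) without overlap. Psmb7 was lower by -0.51 ± 0.19, a call lost without replicate 4 or 5 and without the library block, and Psmb6, at -0.39 ± 0.18, did not pass.

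The lower vestibular stromal members came from every other part of the complex: 3 of 7 alpha genes, 1 structural beta gene, 2 ATPase and 4 non-ATPase cap genes, 2 cap chaperones, 3 of 4 core chaperones, Psme3 and Psmf1. Those with the largest differences were Psmf1 (-2.27 ± 0.20), Psmg1 (-1.22 ± 0.24), Psmd6 (-1.21 ± 0.18), the nuclear activator Psme3 (-0.82 ± 0.25), Psma5 (-0.78 ± 0.19), Psma7 (-0.70 ± 0.19), and the core chaperone Psmg4 (-0.66 ± 0.18). In the cochlea 7 stromal members were higher and 9 lower, against 30.4% and 21.5% of all genes. That comparison turned on the scaling: the median of all genes was 0.30 here, -0.07 with DESeq2 and 0.06 with RLE scaling, and the split was 5 and 15 and 6 and 17. Psmb8 (5.51 ± 0.60), Psmb9 (5.29 ± 0.75) and Psmb10 (3.04 ± 0.51) were higher in each, and Psmb5 was lower by -0.999 ± 0.25, a call lost without replicate 3 and under the marker rule. Psmb6 (-0.19 ± 0.25) and Psmb7 (-0.59 ± 0.28) did not pass. Psmd6 (-2.95 ± 0.22), Psmc5 (-1.59 ± 0.24) and Psmb4 (-1.09 ± 0.24) were called lower in all 15 settings. The higher calls of Psmd9 (1.23 ± 0.42) and Psmd7 (0.81 ± 0.30) were lost in 7 and 12. The other lower members named by size were Psmc4 (-0.88 ± 0.33), Psme4 (-0.87 ± 0.28), Psma2 (-0.78 ± 0.26) and Psmd5 (-0.76 ± 0.31).

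Supporting cells are the epithelial neighbours of HCs. In the vestibule 6 members were higher and 11 lower than in HCs, against 27.4% and 26.9% of all genes (54.4% in either direction). Psmb9 had 8.16, 21.3, 13.3 and 20.7 CPM, above all vHC libraries, and was higher by 3.42 ± 0.51 (adjusted p = 3.4e-09). Psmb8 had 10.9, 11.2, 6.65 and 0 CPM, overlapping the HCs, and its difference of 1.72 ± 0.58 lost its call in 5 of 15 settings. Psmb10, at -0.45 ± 0.44, and the constitutive Psmb5 (0.03 ± 0.19), Psmb6 (-0.33 ± 0.19) and Psmb7 (0.04 ± 0.21) did not pass. Psmg4 was higher by 0.69 ± 0.18 and Psmb3 by 0.45 ± 0.19, the latter lost in 11 settings. The lower members with the largest differences were Psmf1 (-2.76 ± 0.28), Psmg1 (-1.01 ± 0.30), Psmd6 (-0.97 ± 0.20), Psmd9 (-0.92 ± 0.26), Psmd12 (-0.78 ± 0.21), Psmc4 (-0.70 ± 0.24), Psma5 (-0.66 ± 0.22) and Psmc6 (-0.64 ± 0.21).

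In the cochlea 6 supporting cell members were higher and 5 lower, against 23.9% and 18.7% of all genes. DESeq2 gave 2 and 15 and RLE scaling 3 and 15, with medians of all genes of -0.39 and -0.20 in place of 0.12. Psmb9 had 4.52, 10.3, 18.7 and 9.40 CPM and was higher by 3.11 ± 1.01, on 65 UMIs against 1 in HCs, a ratio of pooled levels of 8.46 (95% exact counting interval 1.47 to 339). Its call was lost with DESeq2 and without replicate 4. Psmb8 (1.41 ± 0.98), Psmb10 (0.22 ± 0.70), Psmb5 (0.20 ± 0.23), Psmb6 (0.01 ± 0.24) and Psmb7 (0.18 ± 0.26) did not pass. Psmd6 was lower by -2.97 ± 0.21 in all settings, and Psmb4 (-1.0 ± 0.23), Psme4 (-0.94 ± 0.28), Psmd1 (-0.75 ± 0.25) and Psmd2 (-0.62 ± 0.24) were lower with 2, 2, 5 and 8 settings in which the call was lost. The calls of the higher Psmd10 (0.87 ± 0.36), Psma5 (0.73 ± 0.28) and Psmd7 (0.73 ± 0.30) were lost in 7 or more.

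**Figure D3:**
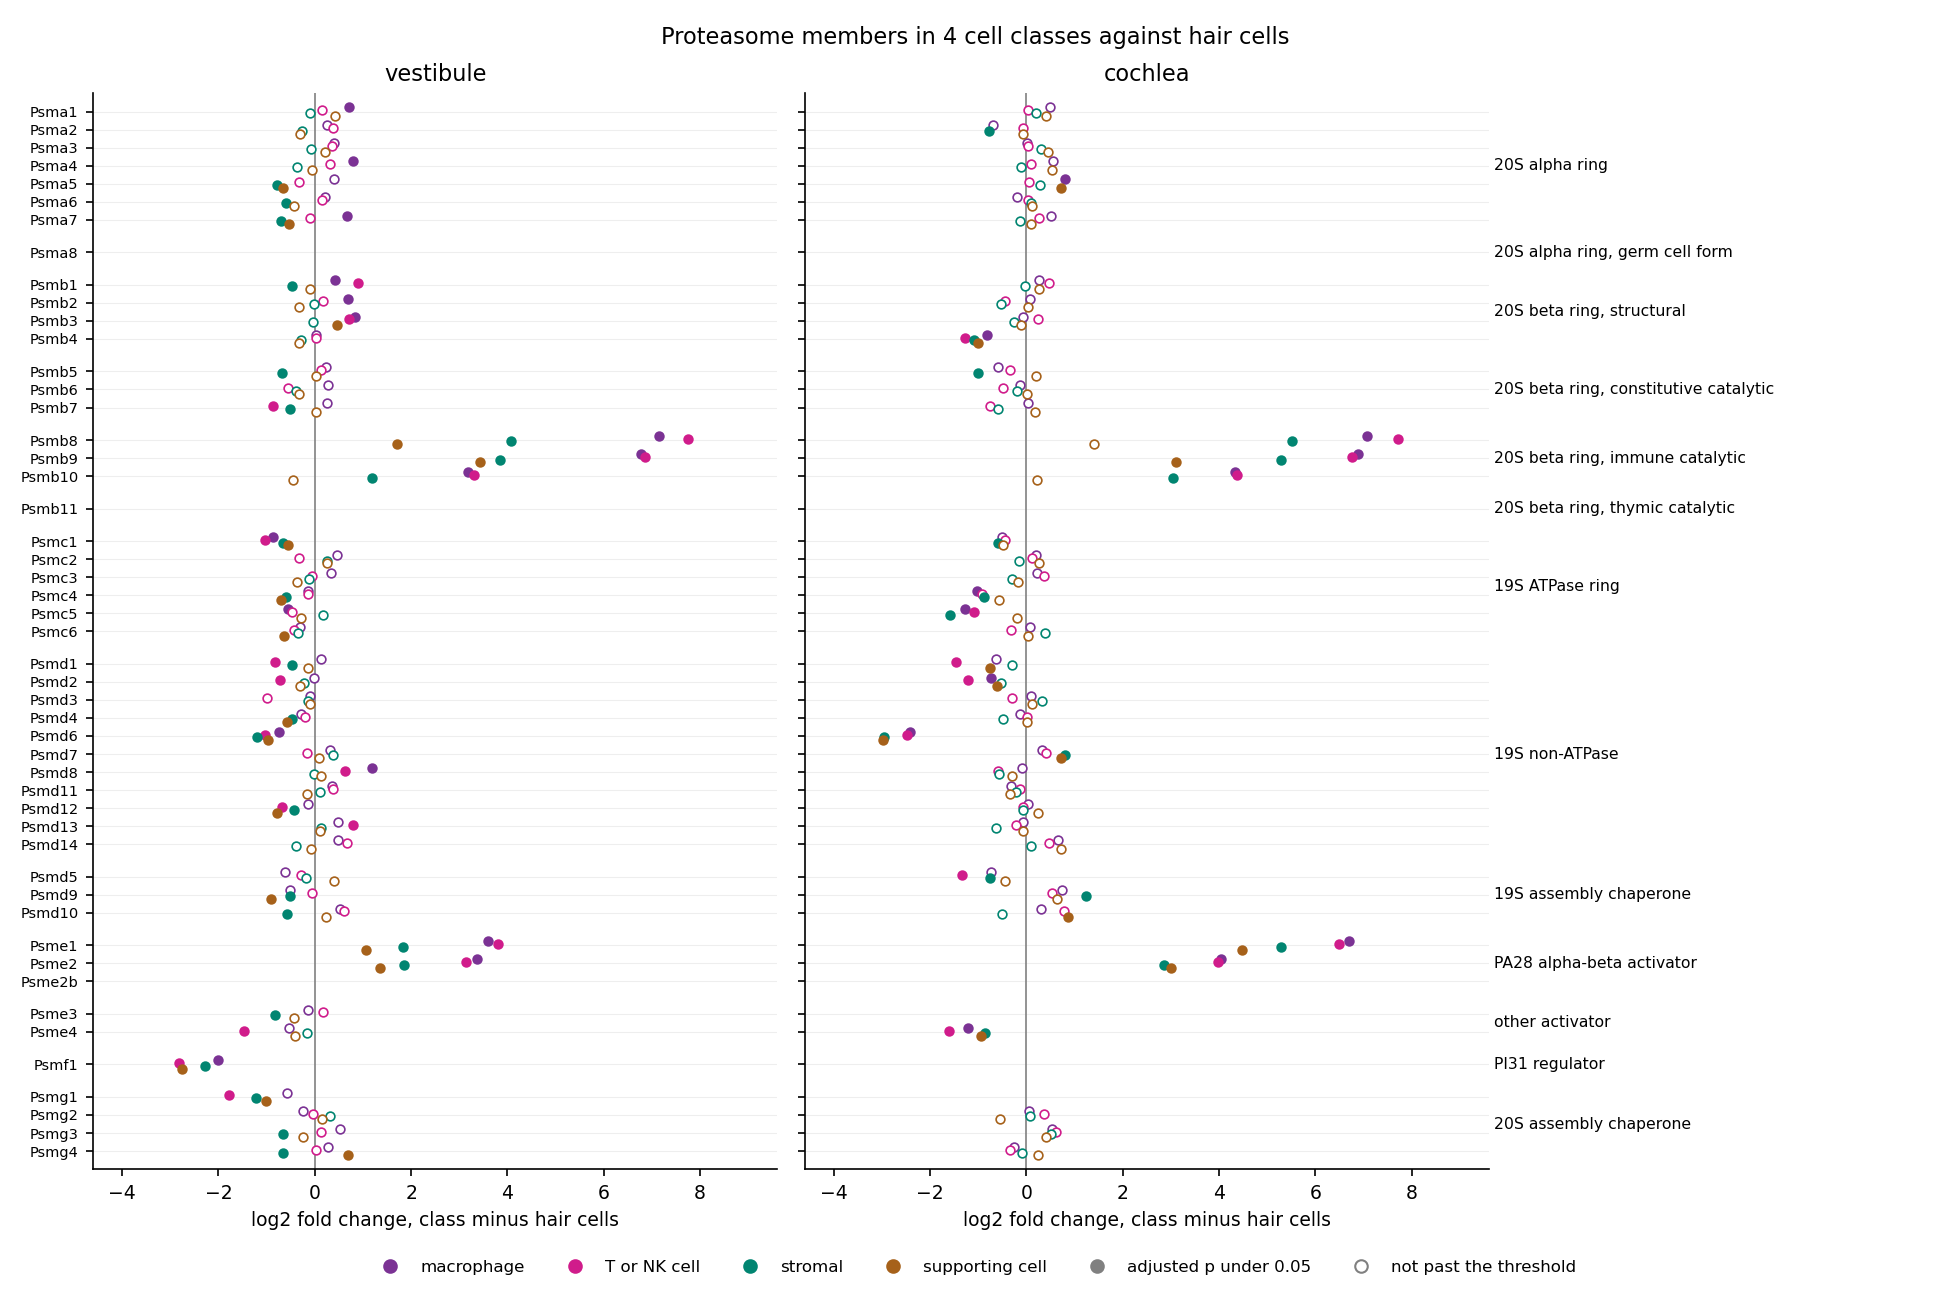
Log2 difference of each member between a class and the HCs of the same organ (x axis), with members as rows grouped by role, for the vestibule (left) and the cochlea (right). Colour is the class, and filled points passed an adjusted p of 0.05 in edgeR's quasi-likelihood test while open points did not. Psmb8, Psmb9 and the PA28 genes lie to the right of the other members in macrophages, stromal cells and T or NK cells, apart from Psmb10. Psmd6 lies on the side of lower levels than in HCs in every class of both organs. In the vestibule Psmf1 lies further to that side.

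The PA28 genes Psme1 and Psme2 encode the alpha and beta parts of the ring that opens the 20S core, and were higher than in HCs in all 8 comparisons and all settings run. Psme1 had 23.7, 36.0, 33.6 and 24.7 CPM in vHCs. Supporting cells had 57.2, 51.5, 68.8 and 72.5 CPM, stromal cells 87.2, 76.2, 85.2 and 78.6 CPM, and macrophages 102, 375, 323 and 356 CPM. Each class lay above all vHC libraries. The log2 differences were 1.06 ± 0.26, 1.83 ± 0.21 and 3.59 ± 0.22, and 3.81 ± 0.25 in T or NK cells.

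Cochlear HCs held 0, 6.58, 0 and 0 CPM of Psme1, from 3 UMIs. Cochlear supporting cells had 55.8, 73.3, 78.3 and 89.8 CPM, stromal cells 123 ± 54.3 CPM and macrophages 384 ± 107 CPM (SD, n = 4), and every library of these classes lay above all cHC libraries. The ratio of pooled levels to HCs was 19.2 in supporting cells (95% exact counting interval 6.52 to 93.3), 38.8 in stromal cells (13.2 to 188) and 91.2 in macrophages (31.0 to 444). The fitted differences of Psme1 were 4.48 ± 0.55, 5.28 ± 0.51, 6.69 ± 0.48 and, in T or NK cells, 6.48 ± 0.51.

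Psme2 was less uneven. It had 24.9, 24.1, 26.8 and 24.0 CPM in vHCs and 12.7, 13.2, 9.52 and 15.6 CPM in cHCs, with 60.3 ± 17.9 and 83.3 ± 25.7 CPM in supporting cells of the vestibule and the cochlea. All supporting cell libraries lay above the HCs of their organ. Its differences were 1.35 ± 0.24 in supporting cells, 1.85 ± 0.20 in stromal cells, 3.36 ± 0.21 in macrophages and 3.15 ± 0.26 in T or NK cells of the vestibule. They were 3.00 ± 0.40, 2.85 ± 0.41, 4.04 ± 0.41 and 3.98 ± 0.43 in the cochlea.

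Psmd6 encodes Rpn7, a subunit of the lid of the 19S cap, and was the member by which all 4 other classes of the cochlea fell furthest below HCs. It had 253, 467, 514 and 532 CPM in cHCs and 99.6, 127, 143 and 145 CPM in vHCs. Inner hair cells (IHCs) had 467 and 575 CPM in the 2 libraries with enough of them, and outer hair cells (OHCs) 260, 430, 328 and 488 CPM. Both cochlear types lay above all vHC libraries, and their own ranges overlapped. The stromal, supporting, macrophage and T or NK classes of either organ had means of 41.3 to 77.8 CPM, and cochlear neurons had 154 ± 51.8 CPM, near the vHCs. Cochlear T or NK cells had 32.3, 78.6, 0 and 200 CPM in replicates 1, 3, 4 and 5. The last of these, from 6 UMIs in 11 cells, lay above all vHC libraries. At least 1 UMI of Psmd6 was found in 73.0% of cHCs and 37.5% of vHCs, and in 40.8% and 11.1% once each cell was thinned to 1000 UMIs. The cHC and vHC libraries differed by 1.85 ± 0.23 (adjusted p = 1.3e-06) with no overlap, and the call held in all 15 settings.

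Psmf1, which encodes PI31, a protein that binds the 20S core and links it to transport along axons, had the opposite pattern across the organs. It had 103, 85.1, 79.7 and 68.3 CPM in vHCs and 25.3, 13.2, 0 and 31.3 CPM in cHCs. Vestibular stromal cells (12.7 ± 1.00 CPM), supporting cells (12.6 ± 5.90 CPM) and macrophages (13.9 ± 9.65 CPM) were near the cHC level, and every vHC library lay above every library of these classes. The HCs of the organs differed by -2.31 ± 0.39, cochlea minus vestibule (adjusted p = 6.3e-05), in all 15 settings. Most vHCs were type I cells, and the levels in type II cells, given next, overlapped those of cHCs.

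Type I and type II vHCs differed in few members. Of 43 tested, 3 were higher in type I cells and 0 lower, against 11.5% and 13% of the 7924 genes tested with edgeR's quasi-likelihood test. At an unadjusted p of 0.05, 7 members passed, and DESeq2 called 2 higher and 0 lower. Psmf1 had 114, 97.9, 91.1 and 87.0 CPM in type I cells of replicates 1, 3, 4 and 5, against 57.6, 27.4, 25.1 and 9.08 CPM in their type II cells, a log2 difference of 1.94 ± 0.22 (adjusted p = 1.8e-08). Psme1 had 27.8, 42.7, 38.4 and 30.6 CPM in type I cells against 6.40, 6.08, 10.8 and 6.06 CPM in type II cells, a difference of 2.44 ± 0.35 (adjusted p = 1.4e-06). Neither gene overlapped between the types, and both were called in all 13 settings run. Type II cells held 10 UMIs of Psme1 and 37 of Psmf1. Psmc6, a cap ATPase, was at 0.39 ± 0.14 (adjusted p = 0.04) and lost its call in 5 settings.

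Psme2, the PA28 partner of Psme1, had 25.2 ± 1.61 CPM in type I cells against 25 ± 12.4 CPM in type II cells (0.07 ± 0.29), and did not pass. Whether Psme1 and Psme2 differ in their change between the types was not tested. The constitutive catalytic genes did not pass, with -0.12 ± 0.12 for Psmb5, 0.21 ± 0.11 for Psmb6 and -0.14 ± 0.16 for Psmb7, and the summed levels overlapped, at 4216 ± 385 and 4362 ± 352 CPM. The immune subunits had too few counts in HCs to be tested. Psmb8 shares were 1.94% ± 1.46 and 0.842% ± 1.18 and Psmb10 shares 14.9% ± 6.73 and 15.6% ± 9.29 in type I and type II cells, and overlapped.

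**Figure D4:**
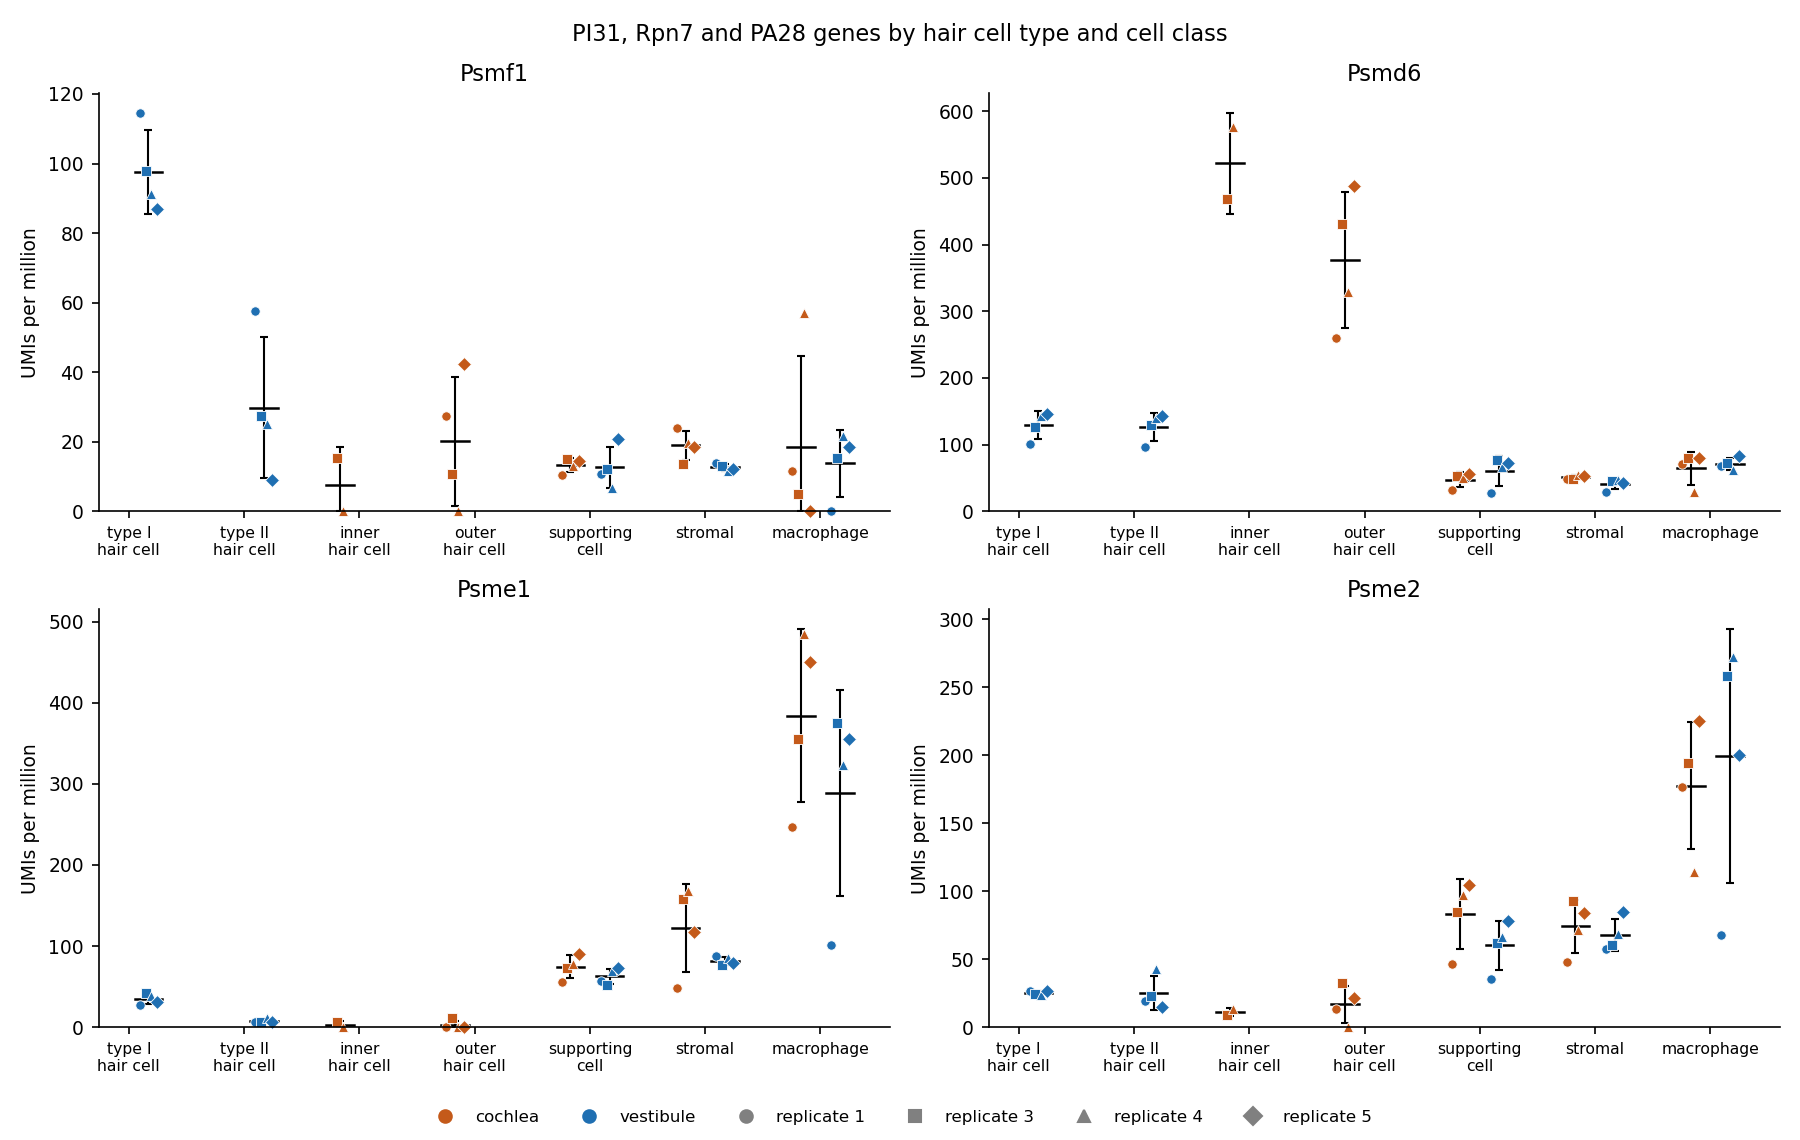
Level of Psmf1, Psmd6, Psme1 and Psme2 in CPM (y axis, linear) in 4 HC types and 3 other classes (x axis). Symbols are libraries and bars are mean ± SD, cut at 0, over 4 libraries (2 for inner hair cells). Psmf1 is highest in type I cells (87.0 to 114), Psmd6 in inner and outer hair cells (260 to 575), and both PA28 genes are lowest in the HC types.

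Between cHCs and vHCs, 5 of 43 members were higher in the cochlea and 3 lower, against 12.8% and 17.7% of the 7656 genes tested. Beside Psmd6 and Psmf1, Psme1 was lower in cHCs by -2.88 ± 0.63 (adjusted p = 0.0011). Of the 1771 vHCs, 1488 were type I cells. The levels of Psmf1 and Psme1 in type II cells, given above, were nearer those of cHCs. The cap chaperones went in different directions. Psmd5, which holds ATPase subunits before the cap is complete, had 76.0, 63.6, 57.1 and 54.7 CPM in cHCs and 26.1, 29.4, 29.3 and 25.4 CPM in vHCs, higher by 1.22 ± 0.26 without overlap. Psmd9, another such chaperone, had 25.3, 15.4, 9.52 and 39.1 CPM in cHCs and 38.6, 57.9, 61.6 and 54.5 CPM in vHCs, lower by -1.38 ± 0.38, and the highest cHC library lay just above the lowest vHC library. The call of Psmd5 was lost only with cells of 500 UMIs kept, and that of Psmd9 in 3 settings.

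The higher calls of Psmb4 (0.85 ± 0.28), Psmd8 (0.76 ± 0.23) and Psmc5 (0.71 ± 0.23) were lost in 8, 6 and 8 of 15 settings. Psmb4, a structural beta subunit, had 88.7 CPM in replicate 1 and 282 to 423 CPM in the other cHC libraries, and 24 of the 25 cHCs of replicate 1 were OHCs. Within OHCs it had 82.0, 247, 328 and 212 CPM in replicates 1, 3, 4 and 5, so that replicate 1 was the lowest there too, and IHCs had 461 and 353 CPM. Psmb5 (0.31 ± 0.22), Psmb6 (-0.13 ± 0.22), Psmb7 (0.20 ± 0.23) and Psme2 (-0.85 ± 0.40) did not pass. The cHC sums hold 14 to 81 cells a library and mix IHCs and OHCs, and the vHC sums mix type I and type II cells. The part of these types in the differences between organs was not tested.

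Macrophages of the organs did not differ in any of the 35 members tested with edgeR's quasi-likelihood test at an adjusted p of 0.05, and 17 of 2638 genes were called (0.644%). At an unadjusted p of 0.05, 3 members passed, and DESeq2 also called 0. Psmb8 was at -0.20 ± 0.32, cochlea minus vestibule, Psmb9 at -0.05 ± 0.41, Psmb10 at 0.16 ± 0.34, Psme1 at 0.19 ± 0.34 and Psme2 at -0.31 ± 0.32. Psmb5 (-0.59 ± 0.34), Psmb6 (-0.68 ± 0.33) and Psmb7 (-0.06 ± 0.31) did not pass either. These libraries hold 10 to 324 macrophages.

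Stromal cells did differ between the organs. Of 46 members, 3 were higher in the cochlea and 4 lower, against 14.6% and 14.2% of the 9192 genes tested, and the 3 higher ones were the immune subunits. Psmb8 had 48.1, 138, 121 and 79.6 CPM in the cochlea and 27.9, 35.5, 48.8 and 31.2 CPM in the vestibule, higher by 1.21 ± 0.24 (adjusted p = 0.00046). The lowest cochlear library, replicate 1, lay just below the highest vestibular one. Psmb9 (1.19 ± 0.32) and Psmb10 (0.67 ± 0.25, adjusted p = 0.049) were also higher, while Psme1 (0.42 ± 0.22), Psme2 (-0.09 ± 0.19), Psmb5 (-0.20 ± 0.20), Psmb6 (-0.11 ± 0.22) and Psmb7 (-0.11 ± 0.21) did not pass. The call of Psmb8 was lost where cells were classed by a marker rule instead of clusters, that of Psmb9 there, with DESeq2 and without replicate 3, and that of Psmb10 in 7 of 15 settings.

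Lower in the cochlear stroma were the cap genes Psmc5 (-1.21 ± 0.19), Psmd13 (-0.64 ± 0.22), Psmc2 (-0.63 ± 0.22) and Psmc3 (-0.46 ± 0.17). Psmc5 kept its call in all settings and the other 3 lost it in 6 to 8. The class was made of different clusters in the organs. Those of the cochlea were led by Ccl11 and Dcn, by Cemip and Dmp1, and by Otor and Emilin2, and those of the vestibule by Lum and Slc7a11, by Gm525 and Otos, and by Otor and Ucma. The C1q genes stood at 1.19% of their macrophage level in the cochlear and 0.293% in the vestibular stroma. The part of either in the organ difference was not tested.

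Of the lists of genes that act beside the proteasome, 2 are given here, chosen like the members with results of these data known. All 9 tested genes of MHC class I loading and its regulators were higher in vestibular macrophages than in HCs, and so were all 9 in stromal cells, 7 of 9 in supporting cells and 9 of 9 in T or NK cells, with medians of 3.09, 1.43, 1.29 and 3.23. Of all genes, 30.8%, 31%, 27.4% and 20% were higher in these comparisons. Irf1, the interferon response factor that drives the immune subunit genes, was higher by 7.35 ± 0.43 in vestibular macrophages, B2m, the light chain of MHC class I, by 5.17 ± 0.29 and its heavy chain H2-K1 by 4.86 ± 0.29. In the cochlea the counts in the same classes were 7 of 7, 7 of 7, 6 of 7 and 7 of 7, against 25.4%, 30.4%, 23.9% and 18.4% of all genes. Between type I and type II cells 1 of 6 was higher (H2-D1) and 1 lower (B2m), against 11.5% and 13% of all genes.

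Of 12 tested genes for proteasome assembly, cofactors and control, 4 were higher (Adrm1, Pomp, Sem1 and Txnl1) and 1 lower (Zfand5) in vestibular macrophages, with a median of -0.10, a share near the 30.8% of all genes called higher. Pomp is the maturation factor of the core, and Adrm1 and Sem1 are cap subunits whose names the symbol rule does not take. In vestibular supporting cells 1 of 12 was called, Usp14, which was lower, against 26.9% of all genes called lower. In cHCs against vHCs, 2 of 12 genes of the assembly list were higher (Uchl5 and Txnl1). Of the loading list 2 of 6 were lower (B2m and Tap2). Of all genes, 12.8% were higher and 17.7% lower in that comparison.

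A few members could not be followed. Psma8, the alpha ring gene of germ cells, had 37 UMIs in the cochlea and 12 in the vestibule over all cells kept, Psmb11, the catalytic subunit of the thymic cortex, 26 and 14, and Psme2b 43 and 65. Psme2b shares 68.7% of its 50-base words with Psme2, which shares 28.3% of its own, so that UMIs of these genes cannot be told apart with certainty. Levels between genes are given as counted, since 3′ libraries count each captured transcript once whatever its length.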

How the data were processed

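Single-cell 3′ libraries (10x Genomics, v3.1 chemistry) of 10 samples, 5 per organ, were used. The authors deposited a filtered matrix of UMI counts per gene and cell for each, made with Cell Ranger 5.0.1 (replicates 1 and 2) or 6.1.2 per the file headers, while the submitters' processing notes name 6.1.2, Seurat and mm10. Replicates 1 and 2 were counted as 1 library, which left 4 per organ.

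Cells with at least 1000 UMIs, 200 genes and under 25% mitochondrial UMIs were clustered per organ in Seurat 5.3.0 (R 4.3.3; 2000 variable genes without the proteasome and related lists, 30 components, resolution 1, or 0.5 within hair cells). A cluster was named where at least 3 markers of a class were found in 25% of its cells at a log2 fold of 1 or more, and where its leading genes did not go against the name. No doublet caller was run and no cells were removed as doublets. No endothelial class could be named, so that comparison was not run.

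Counts were summed per library and class (at least 5 cells). Sums were compared with edgeR 4.0.16 (quasi-likelihood test, TMM, filterByExpr) with Benjamini-Hochberg adjustment over all genes tested, with a library block within an organ and none between organs. DESeq2 1.42.0 was an alternative. Libraries are pools of several mice, and p-values measure the spread between libraries. Within an organ that spread was estimated over all named classes in a joint fit, beyond those compared. The comparison of type I with type II cells and those between organs were fitted on their own classes only. Their p-values thus rest on another estimate of the spread. The members, marker and pathway lists were chosen with earlier results of these data known. Named in each comparison were Psmb5 to Psmb10, Psme1, Psme2 and up to 8 called members in each direction by size, and up to 3 genes of a pathway list. A further pathway list is not reported here.

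Between organs, deviations of same-numbered libraries from their group means correlated at 0.180 to 0.279 in stromal cells, 0.0961 to 0.221 in HCs and -0.0406 to 0.225 in macrophages. In stromal cells and HCs each lay above its highest correlation with another number (at most 0.0521 and 0.0246). In macrophages only that of replicate 3 did. The organ comparisons are given without a replicate block, and the counts with it stand in the last paragraph. On simulated data with genes changed by a log2 of 2, the test recovered 83.8% of them in vestibular and 75.9% in cochlear macrophages against HCs, 91.6% between type I and type II cells, and 84.1%, 96.1% and 92.6% between organs in HCs, macrophages and stromal cells. The changed genes were drawn only from genes above a floor of expected counts, with the same spread set for all genes. The rates therefore do not cover members with few HC counts, or genes with a wider spread between libraries. Genes were placed on GRCm38 with GENCODE M21, and promoter windows were those of the RefSeq table of GRCm38.p6.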

Additional observations from a re-analysis of the deposited data

Results flagged for a closer look

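In 36 groups of 4 libraries, 5 had a library whose gap to the nearest other, over the range of the group, was above Dixon's 95% critical value. For normally spread values chance gives about 1 in 20 groups, a rate that does not hold for shares of few UMIs. Where 1 library holds the only UMIs of a gene, the gap equals the range by construction. Replicate 1 of the cochlea was such a library for 3 values. Its Psmb10 share in macrophages was 33.3%, from few UMIs, against 64.3% to 66.7% in the others, its Psmb8 share in HCs was 9.09% against 0% to 1.01%, and its summed member level in supporting cells was 2507 CPM against 3999 to 4115 CPM. Replicate 3 of the cochlea had the 1 UMI of Psmb9 found in cHCs, a share of 1.15% against 0% in the others. Replicate 4 of the vestibule had a summed level of 2804 CPM in stromal cells against 2655 to 2673 CPM.

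The difference between a class and HCs was also compared between organs, in a joint edgeR quasi-likelihood fit with the library as a block, and 28 differences passed an adjusted p of 0.05. These were 3 of 46 members in macrophages, 13 of 46 in stromal cells, 9 of 43 in supporting cells and 3 of 36 in T or NK cells, or 6.52%, 28.3%, 20.9% and 8.33%, near the 9.11%, 29.6%, 23.2% and 6.72% of all genes tested in the same fits. Values are log2, cochlea minus vestibule, and all 4 contrasts share the HC sums. Psme1 was further above HCs in the cochlea in each class, by 3.06 in macrophages, 3.49 in stromal cells, 3.39 in supporting cells and 2.73 in T or NK cells. Psmd6 was further below HCs there in each, with -1.83, -1.89, -2.06 and -1.57. Psmf1 differed by 2.52 in stromal and 2.82 in supporting cells. HC levels of these 3 genes differed between the organs by themselves, as given in the comparison of cHCs with vHCs.

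Among the 20S core genes, Psmb10 differed by 1.86 in stromal cells, so that the immune subunit stood further above HCs in the cochlea. Psmb4 differed by -0.97 in stromal cells, -0.74 in supporting cells and -1.46 in T or NK cells, and Psma5 by 0.99 and 1.29 in stromal and supporting cells. Psma2 (-0.62) and Psmb2 (-0.62) passed in stromal cells and Psma7 (0.62) in supporting cells.

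Of the cap and activator genes, Psmd9 differed by 1.67 in stromal and 1.58 in supporting cells. Psmc5 (-1.84), Psmd13 (-0.93), Psme4 (-0.86) and Psmc6 (0.68) passed in stromal cells, Psmd12 (0.95) and Psme2 (1.54) in supporting cells, and Psmd8 (-1.28) in macrophages.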

How the results depend on the processing

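Of 124 results for single genes past the threshold, 65 kept their call in every setting run and 59 lost it in at least 1, and 9 of 44 others gained one. Those kept include Psmb8, Psmb9, Psmb10, Psme1 and Psme2 in macrophages, stromal cells and T or NK cells against HCs of both organs. Psmd2 reversed in cochlear macrophages under the marker rule (0.16). The cause of these changes was not tested. Counting set-aside cells as HCs was an alternative chosen after seeing the data, and lost 9 calls and gained 2.

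Members called moved by over 1.5 times as follows. Under the marker rule per cell they were 10 in macrophages and 14 in stromal cells of the vestibule, 10 in stromal and 7 in supporting cells of the cochlea, and 1 between stromal cells of the organs. For cochlear supporting cells they were 17 with DESeq2, 18 with RLE factors, 5 with cells of 500 UMIs and 7 without the replicate block. With cells of 500 UMIs they were 4 between HCs of the organs. Between stromal cells of the organs they were 2 with DESeq2 and 4 at clustering resolution 2. Of the levels, the Psmb8 share in cochlear macrophages moved to 62.1% under the marker rule, and the summed level there to 4417 CPM, or 4408 CPM at resolution 2, and to 4541 CPM in vestibular macrophages under the marker rule.

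Leaving out each replicate in turn gave 10 to 19 members in macrophages of the vestibule (lowest without replicate 4), 16 to 28 in stromal, 12 to 18 in supporting and 7 to 19 in T or NK cells (7 without replicate 3 and 10 without replicate 4). In the cochlea it gave 7 to 11, 10 to 18, 5 to 10 and 7 to 12, each lowest without replicate 3 but the supporting cells (5 without replicate 5, 6 without replicate 4 and 7 without replicate 3). It gave 2 to 3 between type I and type II cells, 5 to 12 between HCs, 0 to 0 between macrophages and 2 to 7 between stromal cells of the organs, with 2 without replicate 3 and 4 without replicate 4 or 5. The Psmb8 share in cHCs was 0.337% without replicate 1 and at most 3.37%.

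With the replicate number as a block, 8 members were called between HCs of the organs, 0 between macrophages and 9 between stromal cells, against 8, 0 and 7 without it, and no call named in the text was lost by the pairing. Cochlear sums rest on few cells per library in HCs (14 to 81), macrophages (15 to 324) and T or NK cells (6 to 217).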
